A study of Saccharomyces cerevisiae with 14 samples.

Results

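Protein-coding genes of named function were compared in budding yeast (Saccharomyces cerevisiae) between RNA captured after 1.5 min of labelling with 4-thiouracil (4tU) and total RNA. They are features of the protein-coding class with a standard gene symbol and an annotated product. Cytoplasmic ribosomal protein genes (138 features) and genes of glycolysis and fermentation (27) were left out, as were 733 features with no named function and 683 with no match in the annotation. This left 5107 of the 6688 protein-coding features, and of the 12449 features of all classes. The captured RNA came from cells given 500 µM 4tU for 1.5 min (3 libraries, from timecourses 1, 2 and 3). Total RNA depleted of rRNA from these timecourses served for comparison (3 libraries). Further libraries were captured after 2.5 and 5 min (3 each) and without label (2). All came from the MATa strain W303U, which carries ade2-1, his3-11, 15, trp1-1, leu2-3, 112 and can1-100, grown at 30 °C in medium lacking uracil and leucine to an OD600 of 0.8 and frozen in cold methanol. The labels name no labelling time for the total RNA samples.

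4tU is a uracil analogue that yeast builds into new RNA at the places of U, and its thiol group lets the labelled molecules be biotinylated and pulled out on streptavidin beads. RNA captured after a short pulse is weighted towards recent synthesis, whereas total RNA also reflects how long each transcript has lasted. A stable mRNA therefore holds a larger share of the standing pool than of the new RNA, and a short-lived one a smaller share. Values here are CPM, read counts scaled to each library's protein-coding reads after TMM (a factor per library that brings the bulk of genes to a common level). They are not divided by length, so levels are compared between conditions and not between genes.

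Total counts per library were 7438973 to 25891855 at 1.5 min and 3618310 to 65173280 in total RNA. Protein-coding reads were 3837737 to 12236333 at 1.5 min and 1629621 to 34061862 in total RNA. Of all counts, rRNA still held 12.99%, 2.645% and 28.7% in total RNA replicates 1, 2 and 3, and 14.47%, 2.343% and 25.45% at 1.5 min. Of the 5107 genes, 0.548% to 0.979% had no reads in a 1.5 min library, against 0.294% to 6.93% in a total RNA library. Total RNA replicate 3 stood apart: 270 tested genes were at 0 in it and above 0 in both other total RNA libraries. The median SD of log2 CPM over the tested genes was 0.278 at 1.5 min and 0.954 in total RNA, or 0.301 over total RNA replicates 1 and 2 alone. Among mating-type genes the receptor gene STE2, a MATa marker, stood at 489, 663 and 622 CPM at 1.5 min, against 894, 788 and 1100.2 CPM in total RNA (adjusted p = 0.105, or 0.0331 with the timecourse as a block). The alpha-factor gene MF(ALPHA)1, a marker of the opposite mating type, stood at 0.902, 0.968 and 1.22 CPM at 1.5 min and 0, 0.172 and 0 CPM in total RNA. It was called higher, at a level near 1 CPM (log2 fold change 2.99 ± 0.88 SE, adjusted p = 0.0362), and not without total RNA replicate 1 or 3. The label-free libraries held 0 and 5.49 CPM of it. The MATalpha markers STE3 and SAG1 were not at 0, with 15.1, 9.94 and 27.5 and 55.7, 70.5 and 87.2 CPM at 1.5 min, and neither they nor MF(ALPHA)2 were called. Of 6 MATa markers 1 was lower and 0 higher, and 3 were lower without total RNA replicate 3 or with the timecourse as a block. The source of the MATalpha reads was not tested.

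How reads were assigned to strands is not stated in the labels, and the counts show reads entered for more than one feature. The cell wall gene CWP2 and the feature YKL096C-B on the opposite strand had identical sums of 219574 reads over the 6 libraries. A stable RNA gene (snoRNA, snRNA or other non-coding RNA, tRNA not counted) lay within 500 bases of 108 of the genes, 103 of them tested. For these the gene's value can hold reads of its neighbour, and this is given below wherever such a gene is named.

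Relative to the bulk of genes, 23 of 37 genes of cell wall proteins, 15 of 20 of vacuolar enzymes, 14 of 26 of translation initiation and 40 of 74 of amino acid synthesis were lower at 1.5 min. The higher genes included the meiotic genes NDT80, RED1 and SPO13. These were picked from single-gene results, and meiotic genes were not counted as a list. SPO13 lost its call without any 1 of the labelled libraries or total RNA replicate 1. edgeR's quasi-likelihood test, fitted over the 12 libraries of the 3 labelling times and total RNA and adjusted over all 11466 features tested, called 838 of 5049 genes (adjusted p under 0.05). Of these, 262 were higher at 1.5 min and 576 lower. Over all features, 8.99% were called higher and 9.42% lower, against 5.19% and 11.4% of the named genes. The 3 labelled libraries lay wholly above the 3 total RNA libraries in 262 of the 262 higher genes. They lay wholly below them in 539 of the 576 lower genes. The calls come from these same libraries, so this is no further support. Over all 5049 genes they lay wholly above in 1006 and wholly below in 827, and over all 11466 features in 3113 and 1415. The median log2 fold change of the 5049 genes was −0.02. Scaled by protein-coding library size alone it was 1.38 and the calls became 2536 higher and 78 lower, and with TMM over all features 168 and 732, so each change is relative to the bulk of genes. The 2 label-free libraries, of which 1 has conflicting labels on what it holds, serve as background. In 60 of the 262 higher genes at least 1 of them was at or above the lowest 1.5 min library, and in 27 at or above all 3. Among higher genes named below this applies to RIF2, PRI2, MCM5, ORC2, KAR5 and MOT2, whose label-free values are given with them. The part of this background in the calls was not tested.

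**Figure D1:**
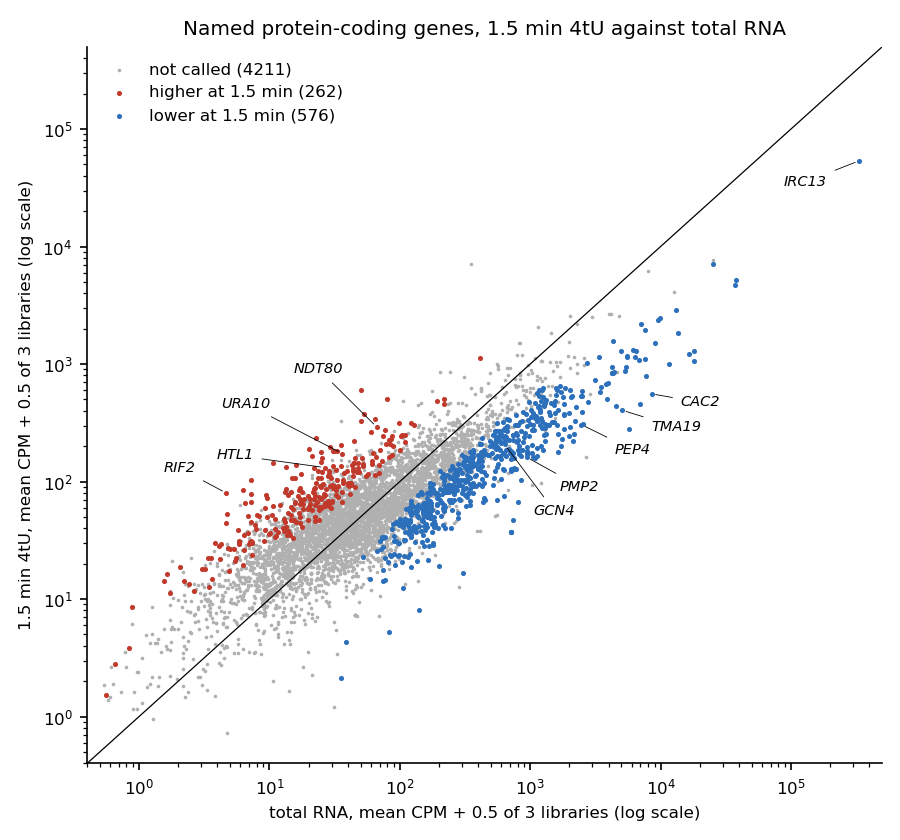
Mean CPM + 0.5 of each of 5049 genes at 1.5 min (vertical, 3 libraries) against total RNA (horizontal, 3 libraries), both on log scales, with the line of equality. The 262 genes called higher (red) lie above the line and the 576 called lower (blue) below it, and the blue points reach further to the right.

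The number of calls depended on the fit. Over the 6 compared libraries alone edgeR called 7 genes higher and 22 lower (0.385% and 0.624% of the 10895 features tested were called). All 29 were also called over 12 libraries, so without a block every other call given below rests on the spread pooled over the 4 groups. With the timecourse as a block the 6 libraries alone gave 22 higher and 87 lower. Of the 114 called genes named, 49 held their call in that fit. Over 12 libraries with the timecourse as a block edgeR called 397 higher and 749 lower. These share 257 and 571 with the calls of the 12-library fit without a block. Without total RNA replicate 3 it called 783 higher and 921 lower, without 1 labelled library 86 to 125 higher and 287 to 330 lower, and without timecourse 2 none (463 higher and 566 lower at an unadjusted p under 0.05, and 411 and 495 by DESeq2).

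**Figure D2:**
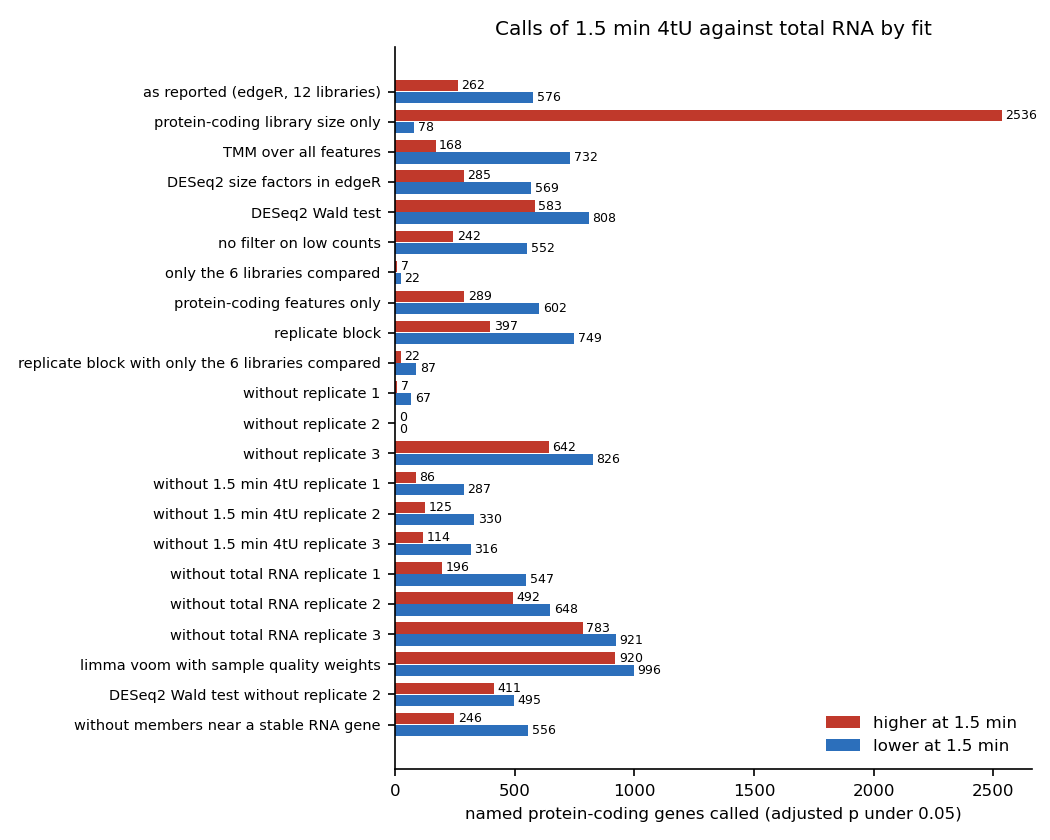
Number of named genes called higher (red) and lower (blue) at 1.5 min, horizontal axis, under each fit, from the one reported (262 and 576) to the alternatives. The counts run from 0 without timecourse 2 to 2536 higher genes under library size alone.

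The 22 genes that were lower in both the 12-library and the 6-library fit were chosen after their values were seen. TMA19 (YKL056C, R64 chromosome XI, 334412 to 334915), the yeast homologue of the translationally controlled tumour protein, which binds ribosomes, had 468, 354 and 391 CPM at 1.5 min, against 4315, 3514 and 7410.2 CPM in total RNA. Its log2 fold change was −3.65 ± 0.37 (SE, adjusted p = 0.000681), and the label-free libraries held 3579.6 and 1267 CPM. HOM6 (YJR139C, R64 chromosome X, 689445 to 690524), homoserine dehydrogenase of threonine and methionine synthesis, had 267, 239.5 and 250.5 CPM at 1.5 min, against 2398, 1902 and 2149.9 CPM in total RNA (log2 fold change −3.09 ± 0.31 SE, adjusted p = 0.000681). In both genes each labelled library was lower than each total RNA library by several times, and the same was true of the wall mannoprotein gene TOS6, with 74.6, 77.05 and 71.5 CPM at 1.5 min, against 491, 956 and 440.1 CPM in total RNA.

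Vacuolar and cell-surface genes showed the same order of libraries. PEP4 (YPL154C, R64 chromosome XVI, 259714 to 260931), proteinase A, which activates the other vacuolar proteases, had 325, 300.3 and 288 CPM at 1.5 min, against 3170.5, 2188 and 2062 CPM in total RNA (log2 fold change −3.02 ± 0.41 SE, adjusted p = 0.00109). CPS1, a vacuolar carboxypeptidase, had 199, 185 and 143 CPM at 1.5 min, against 1101, 1082 and 688 CPM in total RNA. SCW10, a wall protein related to glucanases, had 192, 210.4 and 282 CPM at 1.5 min, against 2019, 1732 and 1493 CPM in total RNA (log2 fold change −2.94 ± 0.29 SE, adjusted p = 0.000681). The groups did not overlap in any of these genes. PRY1, a secreted sterol-binding protein, stood at −3.02 ± 0.37 (SE, adjusted p = 0.000722) on the log2 scale, and CPR1, the cytoplasmic cyclophilin bound by cyclosporin A, at −2.94 ± 0.46 (SE, adjusted p = 0.00184).

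Among enzymes, RNR4, a small subunit of ribonucleotide reductase, had 141, 119.6 and 128 CPM at 1.5 min, against 722, 748 and 769 CPM in total RNA, with nearly equal values across the total RNA libraries. ERG1, squalene epoxidase of ergosterol synthesis, had 364, 408 and 366 CPM at 1.5 min, against 2260, 1969 and 1748 CPM in total RNA. OPI3, which methylates phospholipids to phosphatidylcholine, had 190.2, 197 and 141 CPM at 1.5 min, against 1126, 834 and 1158 CPM in total RNA. Each was called lower, with log2 fold changes of −2.52 ± 0.27 (SE, adjusted p = 0.000681), −2.39 ± 0.27 (SE, adjusted p = 0.000722) and −2.56 ± 0.35 (SE, adjusted p = 0.0011). Adenosine kinase (ADO1), spermidine synthase (SPE3), the glutathione transferase GTT1 and the mitochondrial isocitrate dehydrogenase IDP1 stood at −2.76, −2.37, −2.38 and −2.32. The membrane anchors of succinate dehydrogenase were both lower, SDH3 at −2.46 ± 0.33 (SE, adjusted p = 0.000994) and SDH4 at −2.56 ± 0.34 (SE, adjusted p = 0.000915). HMF1, AIM45 and the stress gene DDR2 stood at −2.70, −2.49 and −2.61. The chromatin assembly subunit gene CAC2 completes the 22 and is described with its snoRNA neighbour below.

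**Figure D3:**
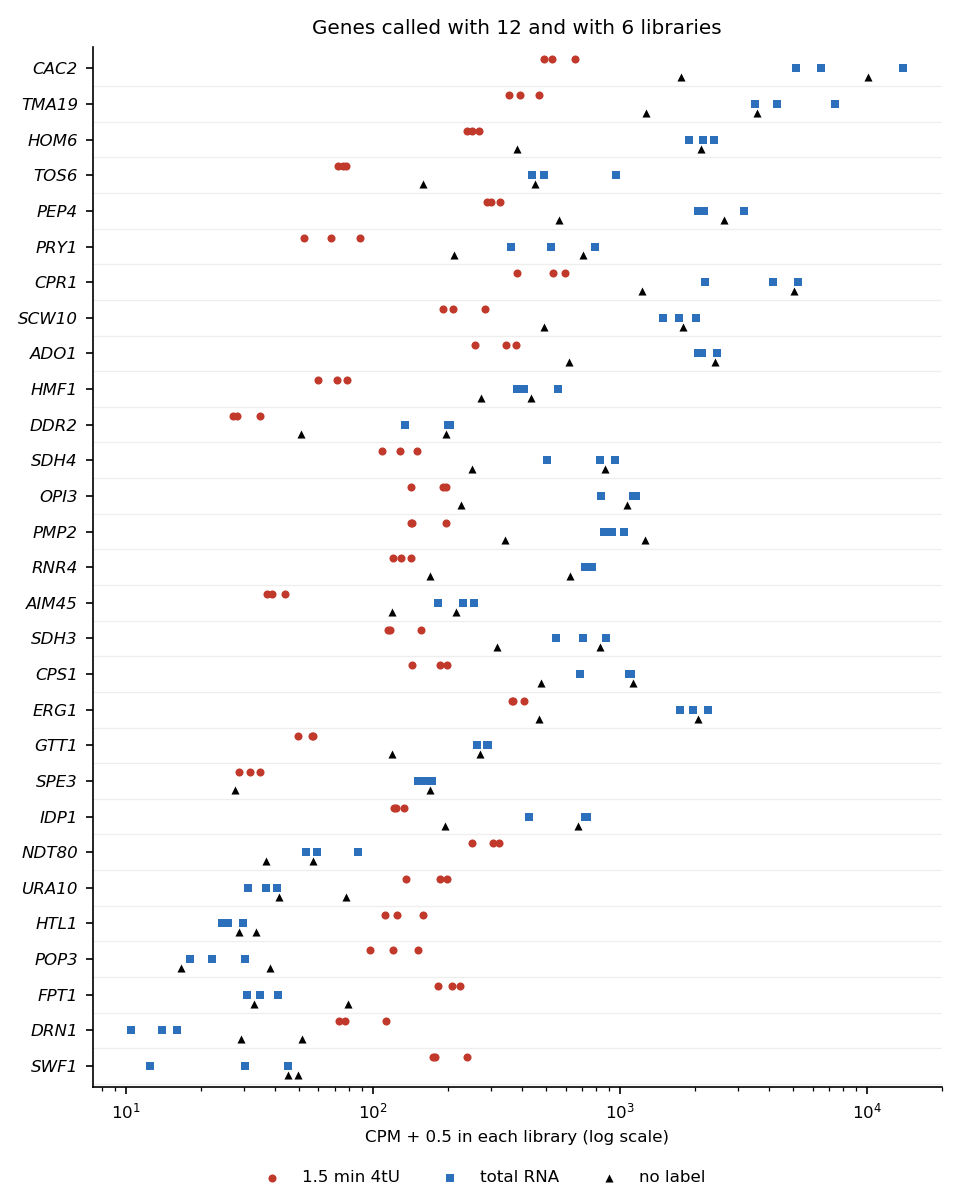
CPM + 0.5 in each library (horizontal, log scale) of the 29 genes called over both 12 and 6 libraries, 1 gene per row, with 3 libraries at 1.5 min (red circles), 3 of total RNA (blue squares) and 2 without label (black triangles). Red and blue do not overlap in any row; the red points lie left of the blue in the upper 22 rows and right of them in the lower 7.

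A contrast in size and base composition is given by the shortest of the 22, PMP2, a small proteolipid that binds the plasma membrane proton pump, and by HTL1, a small subunit of the RSC chromatin remodelling complex that was higher at 1.5 min. Their whole coding sequences are printed 5′ to 3′ from the R64 reference, with every T in capitals because those are the U positions of the RNA at which 4tU can enter. PMP2 (R64 chromosome V, 122798 to 122929, minus strand) has 46 U in 132 bases (34.8%), and HTL1 (R64 chromosome III, 155320 to 155556, plus strand) has 54 in 237 bases (22.8%).
PMP2: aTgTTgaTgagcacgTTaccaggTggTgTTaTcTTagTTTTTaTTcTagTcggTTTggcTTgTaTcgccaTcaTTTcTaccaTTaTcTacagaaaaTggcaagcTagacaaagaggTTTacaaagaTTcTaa
HTL1: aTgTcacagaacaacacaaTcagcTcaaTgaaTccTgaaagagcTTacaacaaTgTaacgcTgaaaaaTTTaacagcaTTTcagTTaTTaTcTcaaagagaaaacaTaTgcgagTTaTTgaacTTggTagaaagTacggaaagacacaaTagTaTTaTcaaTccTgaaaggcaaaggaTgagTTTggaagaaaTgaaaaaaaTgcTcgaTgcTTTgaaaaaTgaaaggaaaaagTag
In this pair, picked after the values were seen, the gene with the larger share of U positions was the lower one in captured RNA. In the pair URA10 and URA5 below it was the higher one (29.1% and 28.6% U), so no link is drawn from either pair. PMP2 had 143, 142 and 197 CPM at 1.5 min, against 1037, 859 and 921 CPM in total RNA (log2 fold change −2.55 ± 0.30 SE, adjusted p = 0.000722), and HTL1 124, 158 and 111 CPM at 1.5 min, against 23.8, 25.2 and 29.2 CPM in total RNA (log2 fold change 2.32 ± 0.44 SE, adjusted p = 0.00518).

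The other 6 genes that were higher in both fits were again chosen after their values were seen. NDT80 (YHR124W, R64 chromosome VIII, 356561 to 358444), the transcription factor that opens the middle phase of meiosis, had 249.8, 304 and 321 CPM at 1.5 min, against 86.3, 52.8 and 58.8 CPM in total RNA, with 56.6 and 36.2 CPM without label. Its log2 fold change was 2.15 ± 0.30 (SE, adjusted p = 0.00122). Every labelled library was above every total RNA library. The gene is known to be repressed in cells that divide by mitosis. POP3, a protein of RNase P and RNase MRP, had 151, 119.6 and 96.4 CPM at 1.5 min, against 29.8, 21.7 and 17.6 CPM in total RNA (log2 fold change 2.43 ± 0.36 SE, adjusted p = 0.00149). SWF1, an enzyme that attaches palmitate to membrane proteins, had 239, 177 and 174 CPM at 1.5 min, against 29.8, 44.6 and 11.97 CPM in total RNA (log2 fold change 2.76 ± 0.44 SE, adjusted p = 0.00222). DRN1, a relative of the lariat debranching enzyme, stood at 2.73 ± 0.35 (SE, adjusted p = 0.000793), and FPT1 at 2.55 ± 0.27 (SE, adjusted p = 0.000681).

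URA10 makes the minor form of orotate phosphoribosyltransferase, the enzyme that turns orotate into the first pyrimidine nucleotide, and URA5 the major form. They are printed side by side because they are copies that went opposite ways. URA10 (R64 chromosome XIII, 806865 to 807548, minus strand) and URA5 (R64 chromosome XIII, 56773 to 57453, plus strand) share 479 of 670 aligned coding bases (71.5%), and their longest identical run is 11 bases. The opening 120 coding bases follow, with every T in capitals.
URA10: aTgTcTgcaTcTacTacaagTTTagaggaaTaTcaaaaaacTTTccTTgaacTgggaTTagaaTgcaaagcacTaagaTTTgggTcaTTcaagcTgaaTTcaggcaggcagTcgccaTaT
URA5: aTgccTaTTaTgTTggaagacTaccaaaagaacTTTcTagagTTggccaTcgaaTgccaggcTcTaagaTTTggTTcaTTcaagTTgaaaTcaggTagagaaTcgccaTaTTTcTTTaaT
URA10 had 197, 135 and 186 CPM at 1.5 min, against 40.2, 36.4 and 30.6 CPM in total RNA (log2 fold change 2.28 ± 0.34 SE, adjusted p = 0.00149). URA5 had 364, 225 and 445 CPM at 1.5 min, against 821, 764 and 1806 CPM in total RNA (log2 fold change −1.71 ± 0.40 SE, adjusted p = 0.0135). That call was lost without 1.5 min replicate 1 or 2. The groups of libraries did not overlap in either gene, and the difference between both genes was not tested.

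The 12 largest increases were taken among called nuclear genes with at least 20 CPM on average and the same sign in all timecourses. RIF2 (YLR453C, R64 chromosome XII, 1041799 to 1042986), which limits telomere length, had 78.4, 58.6 and 102 CPM at 1.5 min, against 0, 11.8 and 0.665 CPM in total RNA (log2 fold change 3.92 ± 0.90 SE, adjusted p = 0.0125). Without label it had 14.96 and 167 CPM, so 1 label-free library was above all labelled ones. RED1 (YLR263W, R64 chromosome XII, 670340 to 672823), a protein of the meiotic chromosome axis, had 158, 130.2 and 142 CPM at 1.5 min, against 11.9, 16.6 and 1.99 CPM in total RNA (log2 fold change 3.81 ± 0.58 SE, adjusted p = 0.00173). TIS11 (YLR136C, R64 chromosome XII, 415801 to 416658), which binds AU-rich mRNAs and promotes their decay under iron limitation, had 78.7, 109.6 and 121 CPM at 1.5 min, against 4.46, 15.9 and 0 CPM in total RNA (log2 fold change 3.78 ± 0.91 SE, adjusted p = 0.016). All labelled libraries lay above all total RNA libraries in these 3 genes, and RIF2 and TIS11 each had a total RNA library at 0. Leaving out 1 library at a time gave log2 fold changes of 3.27 to 7.23 for RIF2, 3.27 to 4.65 for RED1 and 3.10 to 6.47 for TIS11. The lowest came without total RNA replicate 3 and the highest without total RNA replicate 2, and all were called.

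Other meiotic genes in this set were MER1, a splicing activator of meiotic mRNAs, with 64.7, 59.02 and 71.8 CPM at 1.5 min, against 7.44, 10.5 and 0 CPM in total RNA, and SPO13, a regulator of the first meiotic division, with 73.9, 95.6 and 63.7 CPM at 1.5 min, against 5.95, 14.1 and 0 CPM in total RNA. RMD6, named for a role in meiotic division, stood at 3.35 on the log2 scale, with 3, 116 and 4 reads in total RNA. These genes are repressed or hardly used in cells that divide by mitosis, and they were low in total RNA and several times higher at 1.5 min. BUB3, of the spindle checkpoint, had 303, 131 and 131 CPM at 1.5 min, against 26.8, 31.4 and 0.332 CPM in total RNA. THI3, a regulator of thiamine genes, and YIG1 stood at 3.41 and 3.66, and the mitochondrial J-domain gene JID1 at 3.48. In total RNA replicates 1, 2 and 3 THI3 had 13, 329 and 2 reads, YIG1 0, 182 and 21, and JID1 2, 163 and 1. When 1 library was left out their log2 fold changes were 2.81 to 4.04, 2.97 to 4.24 and 2.80 to 5.68, and all stayed called. EFM3, a methyltransferase of elongation factor 2, stood at 3.60 ± 0.69 (SE, adjusted p = 0.00535) and lies beside snR3, and LIN1 at 3.46 ± 1.02 (SE, adjusted p = 0.0371) lies beside snR71. The call of MER1 was lost without 1.5 min replicate 1 or 3, those of SPO13 and BUB3 without any 1 of the labelled libraries or total RNA replicate 1, and that of LIN1 without any 1 of the labelled libraries or total RNA replicate 2.

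Of the 12 largest decreases, chosen by the same rule, 6 lie within 500 bases of a snoRNA gene. RBA50, an RNA polymerase II assembly factor outside these 12, shows the extent to which the counts can be shared: snR84 held 97.4%, 97.9% and 94.1% of the gene's own count at 1.5 min and 99.9%, 99.7% and 100% in total RNA. For CAC2, a subunit of chromatin assembly factor 1 (R64 chromosome XIII, 68294 to 69700), snR85 held 71.2%, 61.4% and 53.4% at 1.5 min and 96.5%, 89.5% and 94.8% in total RNA. CAC2 had 652, 529.8 and 491 CPM at 1.5 min, against 6473, 5129 and 13982 CPM in total RNA (log2 fold change −3.94 ± 0.45 SE, adjusted p = 0.000722). The share of snoRNA reads was lower at 1.5 min in every timecourse, so the value of CAC2 cannot be told apart from that of snR85. The same holds for BRE5 beside snR49 (−4.09), POP6 beside snR46 (−3.90) and STE23 beside snR34 (−3.75), and ODC2 beside snR35 (−3.79) and KTR2 beside snR42 (−3.53) had snoRNA counts close to or above the gene's own, at 75% to 207% of it. IRC13, the feature with the most reads of all named genes, overlaps snR17a, a copy of the U3 snoRNA, and stood at −2.63 ± 0.81 (SE, adjusted p = 0.0428), a call lost without any 1 of the labelled libraries or total RNA replicate 1. RBA50 and IRC13 were named after their values were seen.

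The other 6 largest decreases have no such neighbour. Besides TMA19 they included POR1 (YNL055C, R64 chromosome XIV, 517994 to 518845), the voltage-dependent channel of the outer mitochondrial membrane, with 486, 477 and 359.7 CPM at 1.5 min, against 6691, 5287 and 1620.4 CPM in total RNA (log2 fold change −3.36 ± 0.54 SE, adjusted p = 0.00222). CWP2, a wall mannoprotein, had 1044, 826 and 514 CPM at 1.5 min, against 9442, 10270 and 3549.5 CPM in total RNA (log2 fold change −3.29 ± 0.52 SE, adjusted p = 0.00203). EFT1, a gene for elongation factor 2 with a near-identical copy, had 283, 206 and 172 CPM at 1.5 min, against 3641, 2042 and 754 CPM in total RNA (log2 fold change −3.28 ± 0.56 SE, adjusted p = 0.00305). In each the labelled libraries lay below all total RNA libraries, and total RNA replicate 3 was the lowest of its group. COG5 and IRC18 went the other way in that library: COG5 had 18.9, 22.3 and 14.7 CPM at 1.5 min, against 26.8, 49.2 and 524 CPM in total RNA and IRC18 1.803, 4.75 and 4.87 CPM at 1.5 min, against 7.44, 9.89 and 96.7 CPM in total RNA. Without total RNA replicate 3 their log2 fold changes of −3.43 and −3.31 became −1.08 and −1.20 and were not called, nor were they without any 1 of the labelled libraries (adjusted p without total RNA replicate 3 = 0.158 and 0.107).

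The genes were then grouped by role in 32 lists. The amino acid synthesis list does not hold TRP1, HIS3 or LEU2, the purine list ADE2, or the transporter list CAN1. These genes of the strain's marker alleles are given at the end. TRP1 and CAN1 were called higher, so the counts of higher genes in those lists do not cover them. For most lists the count of called members is given beside its median log2 fold change. The median under library size as the only scaling (where all genes stood at 1.38) is given for a list or as a range over several. For most lists the range of the lower count is given over the 6 fits that each left out 1 of the compared libraries. A range not given does not mean that the count was stable. Among all named genes 11.4% were lower.

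Cell wall and vacuolar genes had the lowest medians together with translation elongation. Of 37 genes of cell wall proteins and glucan synthesis 23 were lower and 0 higher, with a median of −1.81 (−0.35 under library size alone). For cell wall genes the lower count was 15 to 28 when 1 library was left out, and fewer by over 1.5 times without 1.5 min replicate 1. CCW12, a main mannoprotein of the wall whose reads nearly equal those of an antisense feature (1100843 and 1089970 over the 6 libraries), had 7939, 5273 and 2461 CPM at 1.5 min, against 56384, 51933 and 5613 CPM in total RNA. Its log2 fold change of −2.86 ± 0.83 (SE, adjusted p = 0.0342) lost its call without any 1 library other than total RNA replicate 3. HSP150, another wall protein, had 3267, 6845 and 2167 CPM at 1.5 min, against 17898, 18668 and 1640.3 CPM in total RNA and was not called (adjusted p = 0.149). In both genes total RNA replicate 3 was far below the other total RNA libraries. Of 20 genes of the vacuolar ATPase and vacuolar proteases 15 were lower and 0 higher, with a median of −1.62 (−0.21 under library size alone). For vacuolar genes the lower count was 8 to 16 when 1 library was left out, and fewer by over 1.5 times without any 1 of the labelled libraries. VMA1, the catalytic subunit of the pump that acidifies the vacuole, had 1226, 1276 and 927 CPM at 1.5 min, against 6351, 6598 and 3620.3 CPM in total RNA (log2 fold change −2.27 ± 0.40 SE, adjusted p = 0.0034).

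Genes of protein synthesis outside the ribosomal proteins were lower in many members. Of 11 genes of translation elongation and termination 6 were lower and 0 higher, with a median of −1.73 (−0.29 under library size alone). For elongation and termination genes the lower count was 5 to 7 when 1 library was left out. YEF3, the fungal elongation factor 3, had 3431, 3094 and 2149 CPM at 1.5 min, against 17151, 15046 and 7026 CPM in total RNA (log2 fold change −2.18 ± 0.45 SE, adjusted p = 0.00768). HYP2, the eIF5A gene, had 739, 808 and 985 CPM at 1.5 min, against 4966, 4914 and 2939 CPM in total RNA (log2 fold change −2.34 ± 0.32 SE, adjusted p = 0.00116). Its reads nearly equal those of the neighbouring MTC7 (127608 and 127692 over the 6 libraries). Of 26 genes of translation initiation 14 were lower and 0 higher (median −1.08, or 0.31 under library size alone). For initiation genes the lower count was 5 to 17 when 1 library was left out, and fewer by over 1.5 times without any 1 of the labelled libraries. TIF2, a gene for the helicase eIF4A with a near-identical copy, had 215, 154 and 183 CPM at 1.5 min, against 835, 986 and 1918 CPM in total RNA (log2 fold change −2.76 ± 0.35 SE, adjusted p = 0.000798). Of 18 cytoplasmic tRNA synthetase genes 11 were lower and 0 higher (median −1.15, or 0.26 under library size alone). For tRNA synthetase genes the lower count was 7 to 13 when 1 library was left out, and fewer by over 1.5 times without 1.5 min replicate 1 or 2. Among them was the alanyl-tRNA synthetase gene ALA1 at −1.82 ± 0.26 (SE, adjusted p = 0.00125).

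Biosynthesis genes were also lower in many members. Of 74 genes of amino acid synthesis 40 were lower and 0 higher, with a median of −1.29 (0.11 under library size alone). For amino acid synthesis genes the lower count was 25 to 46 when 1 library was left out, and fewer by over 1.5 times without 1.5 min replicate 3. MET6, methionine synthase, had 1131, 682 and 697 CPM at 1.5 min, against 6005, 4815 and 2237 CPM in total RNA (log2 fold change −2.38 ± 0.54 SE, adjusted p = 0.0121). Its call was lost without 1.5 min replicate 2 or 3. ILV5, of branched-chain amino acid synthesis, had 2960.4, 2801 and 1874 CPM at 1.5 min, against 5554, 6841 and 1887 CPM in total RNA, which overlap, and was not called (log2 fold change −0.90 ± 0.47 SE, adjusted p = 0.186). Of 18 genes of fatty acid and phospholipid synthesis 10 were lower and 0 higher (median −1.27, or 0.15 under library size alone). For lipid synthesis genes the lower count was 6 to 14 when 1 library was left out, and fewer by over 1.5 times without 1.5 min replicate 1 or 2. Among them was the fatty acid synthase subunit FAS1 at −1.94 ± 0.33 (SE, adjusted p = 0.00312). Ergosterol synthesis had 11 of 24 lower and 0 higher (median −1.02, or 0.40 under library size alone). For ergosterol genes the lower count was 6 to 19 when 1 library was left out, and fewer by over 1.5 times without 1.5 min replicate 1. Purine synthesis had 7 of 19 lower and 0 higher (median −0.76, or 0.64 under library size alone). For purine genes the lower count was 2 to 11 when 1 library was left out, and fewer by over 1.5 times without any 1 library other than total RNA replicate 3. Among them was ADE5,7, which catalyses 2 steps of the pathway, at −1.91 ± 0.32 (SE, adjusted p = 0.00267). The highest counts of ergosterol and purine genes came without total RNA replicate 3.

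Genes of energy metabolism and of the secretory route followed. Of 39 genes of the respiratory chain and ATP synthase 17 were lower and 0 higher, with a median of −1.12 (0.28 under library size alone). For respiratory genes the lower count was 11 to 25 when 1 library was left out, and fewer by over 1.5 times without 1.5 min replicate 1. COR1, a core subunit of the cytochrome bc1 complex, had 79.6, 78.5 and 81.2 CPM at 1.5 min, against 357, 285 and 446 CPM in total RNA (log2 fold change −2.18 ± 0.25 SE, adjusted p = 0.000722). Of 16 genes of the TCA cycle 6 were lower and 0 higher (median −0.87, or 0.51 under library size alone). For TCA cycle genes the lower count was 1 to 12 when 1 library was left out, and fewer by over 1.5 times without any 1 of the labelled libraries or total RNA replicate 1. Aconitase, ACO1, stood at −1.98 ± 0.30 (SE, adjusted p = 0.00154). Of 46 genes of translocation into the ER, vesicle coats and glycosylation 15 were lower and 0 higher (median −0.86, or 0.57 under library size alone). For ER and coat genes the lower count was 9 to 23 when 1 library was left out, and fewer by over 1.5 times without 1.5 min replicate 1. EMP24, a cargo receptor of ER vesicles, had 155, 188 and 204 CPM at 1.5 min, against 796, 861 and 1189 CPM in total RNA (log2 fold change −2.38 ± 0.29 SE, adjusted p = 0.000722). Of 37 genes of the actin and tubulin cytoskeleton 11 were lower and 0 higher (median −0.78, or 0.60 under library size alone). For cytoskeleton genes the lower count was 6 to 16 when 1 library was left out, and fewer by over 1.5 times without 1.5 min replicate 1 or 3. Among them were the profilin gene PFY1 at −2.58 ± 0.46 (SE, adjusted p = 0.00377) and actin, ACT1, at −2.02 ± 0.46 (SE, adjusted p = 0.0127), whose call was lost without 1.5 min replicate 2 or 3. The highest counts of TCA cycle and ER genes came without total RNA replicate 3.

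**Figure D4:**
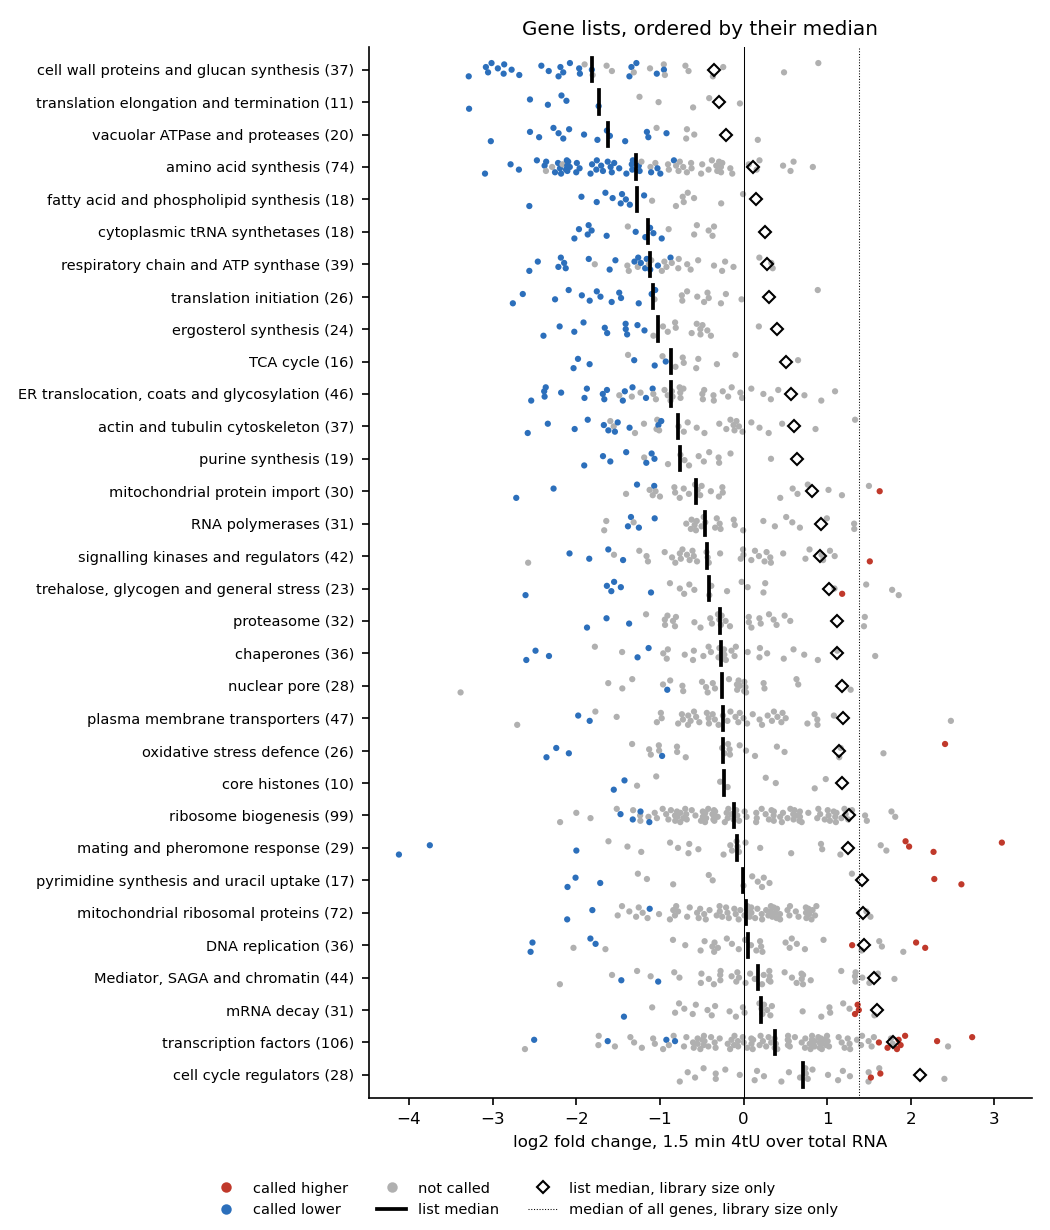
Log2 fold change (1.5 min 4tU over total RNA, horizontal) of the tested members of 32 gene lists, each point 1 gene, ordered by the list's median (black bar), with the median under library size only as a diamond and the median of all genes under it, 1.38, as a dotted line. Cell wall genes have the lowest median (−1.81) and cell cycle regulators the highest (0.71). Under library size only, every list's median is higher, and only cell wall, vacuolar and elongation genes keep a median below 0.

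Lists with medians near the bulk of genes had 0 higher genes in the reported fit. The lower share ran from 3.57% (nuclear pore) to 20% (core histones), against 11.4% of named genes and 9.42% of all features. Chaperones (13.9%) and RNA polymerases (12.9%) were also above both shares. Ribosome biogenesis had 0 of 99 genes higher and 4 lower (median −0.12), including the nucleolar protein gene NSR1 at −1.32 ± 0.34 (SE, adjusted p = 0.0197), whose call was lost without any 1 of the labelled libraries and which turned to 0.07 under library size alone. Mitochondrial ribosomal proteins had 0 of 72 higher and 3 lower (median 0.03), Mediator, SAGA and chromatin genes 0 of 44 higher and 2 lower (0.18), and the RNA polymerase subunits 0 of 31 higher and 4 lower (−0.46), including RPB7 at −1.25 ± 0.28 (SE, adjusted p = 0.0113), whose call was lost without 1.5 min replicate 1 and which turned to 0.15 under library size alone. Chaperones had 5 of 36 lower (median −0.27), among them SSB1, which binds nascent chains at the ribosome, at −2.60 ± 0.58 (SE, adjusted p = 0.0108), a call lost without 1.5 min replicate 3. The proteasome had 3 of 32 lower (−0.28), the nuclear pore 1 of 28 (−0.26) and the core histones 2 of 10 (−0.24), all with 0 higher. For core histones the lower count was 1 to 4 when 1 library was left out. In the ribosome biogenesis, mitochondrial ribosomal, chromatin, polymerase, chaperone, proteasome and nuclear pore lists the lower count fell to 0 in at least 1 fit without 1 labelled library and reached 5 to 8 without 1 total RNA library (replicate 1 for the polymerases, 2 or 3 for the others). The higher count of ribosome biogenesis reached 9 and that of the chromatin list 6 without total RNA replicate 3. With the timecourse as a block, ribosome biogenesis had 5 higher and 7 lower, chaperones 8 lower and the nuclear pore 4 lower. Under library size alone the medians of these lists were 0.93 to 1.56.

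Plasma membrane transporters had 2 of 47 genes lower and 0 higher (median −0.25). These were the proton pump PMA1, with 6430.3, 7072 and 7739.9 CPM at 1.5 min, against 29652, 23046 and 23339 CPM in total RNA (log2 fold change −1.84 ± 0.36 SE, adjusted p = 0.00553), and the iron oxidase FET3 at −1.98 ± 0.42 (SE, adjusted p = 0.00886). FUI1, the uridine permease, overlapped between groups with 4677, 6496 and 7595 CPM at 1.5 min, against 9327, 8620.2 and 6294 CPM in total RNA (log2 fold change −0.37 ± 0.38 SE, adjusted p = 0.506) and turned to 1.08 under library size alone. Oxidative stress defence had 1 gene of 26 higher, the peroxidase GPX1 at 2.41 ± 0.54 (SE, adjusted p = 0.0116), and 4 lower, with the peroxidase HYR1 and the thioredoxin TRX1 at −2.36 and −2.24. Trehalose, glycogen and general stress genes had 1 of 23 higher, the aldehyde dehydrogenase ALD3 at 1.18 ± 0.33 (SE, adjusted p = 0.0289), and 6 lower. For these stress genes the lower count was 2 to 8 when 1 library was left out, and fewer by over 1.5 times without any 1 of the labelled libraries or total RNA replicate 1. Signalling genes had 1 of 42 higher, the cAMP phosphodiesterase PDE2 at 1.51 ± 0.35 (SE, adjusted p = 0.0125), and 4 lower, namely BCY1, IRA1, HOG1 and RHO1 at −1.84, −1.44, −1.62 and −2.08. BCY1, IRA1 and PDE2 all encode brakes on the cAMP pathway, and these genes did not move together. Mitochondrial protein import had 1 of 30 higher, TIM21 at 1.63 ± 0.38 (SE, adjusted p = 0.0131), and 4 lower. The call of ALD3 was lost without any 1 of the labelled libraries or total RNA replicate 2, that of PDE2 without 1.5 min replicate 3 and that of TIM21 without 1.5 min replicate 1. Without total RNA replicate 3 the lower counts were 5 for transporters, 9 for oxidative stress, 9 for mitochondrial import and 7 for signalling. The oxidative stress count was 2 to 9 over the fits that left out 1 library, and fewer by over 1.5 times without any 1 of the labelled libraries or total RNA replicate 1. The import count was 1 to 9, and fewer by over 1.5 times without 1.5 min replicate 1 or 2. With the timecourse as a block the 4 counts were 5, 7, 7 and 5, and 4 transporters and 3 signalling genes were higher. Under library size alone the medians of these 5 lists were 0.82 to 1.19.

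Transcription factor genes and cell cycle regulators had the highest medians. Of 106 transcription factor genes 8 were higher and 4 lower (7.55% and 3.77%), with a median of 0.37, or 1.79 under library size alone. The share of higher genes was near the 8.99% of all features and the 5.19% of named genes. The higher count was 1 to 22 when 1 library was left out, with 1 without 1.5 min replicate 1, 18 without total RNA replicate 2 and 22 without total RNA replicate 3. The lower count was 2 to 9 over the same fits, and fewer by over 1.5 times without any 1 of the labelled libraries. The proteasome gene activator RPN4, a protein known for its rapid turnover, had 638, 120.1 and 227 CPM at 1.5 min, against 83.3, 46.6 and 20.6 CPM in total RNA (log2 fold change 2.73 ± 0.77 SE, adjusted p = 0.0301). Its 1.5 min replicate 1 was far above the rest, and it lost its call without 1.5 min replicate 1 or 3 or total RNA replicate 2. GAL4, the activator of galactose genes, which overlaps a non-coding RNA gene, had 151, 102 and 104 CPM at 1.5 min, against 55.05, 36.2 and 18.9 CPM in total RNA (log2 fold change 1.72 ± 0.40 SE, adjusted p = 0.0132). Its call was lost without 1.5 min replicate 1. The 4 lower factors were HAC1, GCN4, HCM1 and HAP1. HAC1, of the unfolded protein response, had 713, 912 and 455 CPM at 1.5 min, against 4204, 4089.6 and 3505 CPM in total RNA (log2 fold change −2.50 ± 0.41 SE, adjusted p = 0.00232). GCN4, the activator of amino acid synthesis genes, whose mRNA is held under translational control, had 203, 169.7 and 247 CPM at 1.5 min, against 559, 707 and 643 CPM in total RNA (log2 fold change −1.62 ± 0.26 SE, adjusted p = 0.00222). HCM1 and HAP1 stood at −0.92 and −0.82 and had values of 0.51 and 0.57 under library size alone. Both calls were lost without any 1 of the labelled libraries, and that of HCM1 also without total RNA replicate 1 or 2.

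Of 28 cell cycle regulators 2 were higher (7.14%, again near the share of all features) and 0 lower, with a median of 0.71, or 2.11 under library size alone. Without total RNA replicate 3, 9 were higher. The labelled libraries lay wholly above total RNA in 13 of the 28, against 1006 of all 5049 named genes and 3113 of all 11466 features. The called genes were the Pho85 cyclins PCL9, with 63.1, 71.5 and 75.7 CPM at 1.5 min, against 23.8, 22.5 and 26.9 CPM in total RNA (log2 fold change 1.52 ± 0.28 SE, adjusted p = 0.00409), and PCL1, with 89.04, 162 and 115 CPM at 1.5 min, against 19.3, 41.5 and 54.8 CPM in total RNA. PCL1 lies beside snR40 and lost its call without any 1 library other than total RNA replicate 3. CLN3, the G1 cyclin that starts the cycle, had 248, 447 and 272 CPM at 1.5 min, against 378, 420.5 and 18.9 CPM in total RNA, in which total RNA replicate 3 stood far below the others. It was not called (log2 fold change 0.24 ± 0.73 SE, adjusted p = 0.829). Without that library its log2 fold change was −0.31.

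In 4 further lists members were called in both directions. Of 29 genes of mating and pheromone response 4 were higher (13.8%) and 3 lower (median −0.08). The higher genes were KAR4, a transcription factor of karyogamy, with 108, 91.8 and 120 CPM at 1.5 min, against 37.2, 21.3 and 10.3 CPM in total RNA (log2 fold change 2.27 ± 0.40 SE, adjusted p = 0.00357), the MAP kinase KSS1 at 1.94 ± 0.30 (SE, adjusted p = 0.00176), the membrane fusion protein PRM1 at 1.98 ± 0.30 (SE, adjusted p = 0.0016) and KAR5, of nuclear fusion, at 3.09 ± 0.60 (SE, adjusted p = 0.00553). KAR5 had 35.6, 22.4 and 25.5 CPM at 1.5 min and 4.49 and 30.02 CPM without label, so these overlap. All 4 were called in each fit that left out 1 library, and 7 were higher and 7 lower without total RNA replicate 3. The lower count was 2 to 7 over these fits. Under library size alone the list's median was 1.25. The lower genes were MFA2, which encodes the a-factor pheromone, with 80.5, 126 and 136 CPM at 1.5 min, against 497, 557 and 318 CPM in total RNA (log2 fold change −2.00 ± 0.32 SE, adjusted p = 0.00227), STE23, named above for its snoRNA neighbour, and STE18. STE18, the gamma subunit of the pheromone G protein, had 4.73, 5.72 and 3.94 CPM at 1.5 min, against 2.98, 11.7 and 234 CPM in total RNA, so its call rests on total RNA replicate 3. Without that library it stood at −0.83 (adjusted p = 0.277), and with the timecourse as a block it was not called (adjusted p = 0.082).

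Of 36 DNA replication genes 3 were higher (8.33%, near the share of all features) and 4 lower (median 0.05). The primase subunit PRI2, the helicase subunit MCM5 and the origin recognition subunit ORC2 were higher, at 2.06 ± 0.33 (SE, adjusted p = 0.00231), 2.17 ± 0.56 (SE, adjusted p = 0.0206) and 1.30 ± 0.39 (SE, adjusted p = 0.0383). PRI2 had 101, 131 and 133 CPM at 1.5 min, against 16.4, 38.6 and 30.2 CPM in total RNA, and MCM5 79.3, 73 and 90.98 CPM at 1.5 min, against 11.9, 34.9 and 4.99 CPM in total RNA. Without label PRI2 had 37.4 and 190 CPM, MCM5 26.4 and 82.02 CPM and ORC2 22.2 and 53.5 CPM. In each 1 label-free library was above at least 1 labelled library, and in PRI2 above all 3. Lower were the ribonucleotide reductase subunits RNR2, with 250.4, 156 and 173 CPM at 1.5 min, against 1678, 1193 and 516 CPM in total RNA (log2 fold change −2.55 ± 0.45 SE, adjusted p = 0.00371), and RNR4, given above, and with them RFC2 and RFA3 at −1.83 and −1.77. The calls of MCM5, ORC2, RFC2 and RFA3 were each lost without 1.5 min replicate 1. They were also lost without another labelled library (replicate 3 for MCM5, 2 for ORC2 and RFA3, either for RFC2) and, except for RFC2, without total RNA replicate 1. In this list 7 genes were higher without total RNA replicate 2, and 8 lower without replicate 3. Over the fits that left out 1 library the higher count was 1 to 7 and the lower count 2 to 8. Under library size alone the list's median was 1.44.

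Of 31 genes of mRNA decay 3 were higher (9.68%, near the share of all features) and 1 lower (median 0.21). The catalytic decapping subunit DCP2 had 112, 96.2 and 124 CPM at 1.5 min, against 31.2, 50.8 and 48.5 CPM in total RNA (log2 fold change 1.33 ± 0.27 SE, adjusted p = 0.00722). The nonsense-mediated decay factor NMD2 and the ubiquitin ligase MOT2 of the Ccr4-Not complex stood at 1.36 ± 0.35 (SE, adjusted p = 0.0208) and 1.38 ± 0.34 (SE, adjusted p = 0.0167), and CCR4, the deadenylase of that complex, at −1.43 ± 0.34 (SE, adjusted p = 0.0144). MOT2 had 117, 90.4 and 80.3 CPM at 1.5 min and 30.4 and 168 CPM without label, so 1 label-free library was above all labelled ones. MOT2 and CCR4 thus moved in opposite directions within 1 complex, a difference that was not tested. The calls of MOT2, NMD2 and CCR4 were lost without 1.5 min replicate 1, that of NMD2 also without total RNA replicate 1 and that of CCR4 also without 1.5 min replicate 3. In this list 7 were higher without total RNA replicate 2, and 3 were lower without replicate 3 or with the timecourse as a block. Over the fits that left out 1 library the higher count was 1 to 7 and the lower count 0 to 3. Under library size alone the list's median was 1.60. Of 17 genes of pyrimidine synthesis and uracil uptake 2 were higher (11.8%) and 3 lower (17.6%), against 8.99% and 9.42% of all features. The median was −0.00073, or 1.42 under library size alone. For pyrimidine genes the lower count was 1 to 4 when 1 library was left out, and fewer by over 1.5 times without any 1 of the labelled libraries. CDD1, the cytidine deaminase of pyrimidine salvage, had 150.3, 145 and 92.5 CPM at 1.5 min, against 26.8, 30.5 and 6.98 CPM in total RNA (log2 fold change 2.60 ± 0.50 SE, adjusted p = 0.00521), and URA10 is given above. Besides URA5, the lower genes were URA2, the enzyme that starts the pathway, at −2.01 ± 0.46 (SE, adjusted p = 0.0131), and the uridylate kinase URA6 at −2.10 ± 0.52 (SE, adjusted p = 0.0177), whose call was lost without any 1 of the labelled libraries; that of URA2 was lost without 1.5 min replicate 3.

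Genes on the mitochondrial genome, which a separate polymerase transcribes inside the organelle, had 9 of 17 members lower and 0 higher, with a median of −3.51 (−2.11 under library size alone). Their medians within timecourses 1, 2 and 3 were −2.57, −3.86 and −3.62, and with the timecourse as a block 16 of the 17 were lower. These members are not 17 measurements: COB, BI2, BI3 and BI4 had identical counts (10809 reads each over the 6 libraries), as did COX1, AI2, AI3, AI4 and AI5_ALPHA (1193 each). With identical counts taken once, 6 of 10 were lower (9 with the block) and the median was −3.55. Of 162 genes with an intron in the coding region 7 were higher and 21 lower (4.32% and 13.0%), with a median of −0.20, close to the 5.19% and 11.4% of all named genes (12 and 29 with the timecourse as a block).

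Length and U content, which the choice of genes did not use, were set against the log2 fold change by cutting the 5049 genes into quintiles. The quintile with the most U in the coding sequence (29.8% to 48.7%) had a median of −0.30, with 43 genes higher and 182 lower of 1010. The quintile with the least U (11.3% to 24.6%) had a median of 0.05, with 45 higher and 67 lower of 1012. The U-rich quintile was below the U-poor quintile in timecourse 1 (−0.26 and 0.17), timecourse 2 (−0.20 and 0.04) and timecourse 3 (−0.14 and 0.67). The U-rich quintile also had more reads per gene (median 108 CPM, against 36.6 CPM in the U-poor quintile), and the part of read depth in the difference was not tested. By coding length, the shortest quintile (87 to 705 bases) had a median of −0.23 with 39 higher and 154 lower of 1017, and the longest (2184 to 14733 bases) −0.18 with 38 and 118 of 1010. In the shortest quintile the median was −0.07 and −0.21 in timecourses 1 and 2 and 0.36 in timecourse 3 (the longest had 0.08, −0.08 and −0.18). With library size only all quintiles had medians of 1.11 to 1.54.

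**Figure D5:**
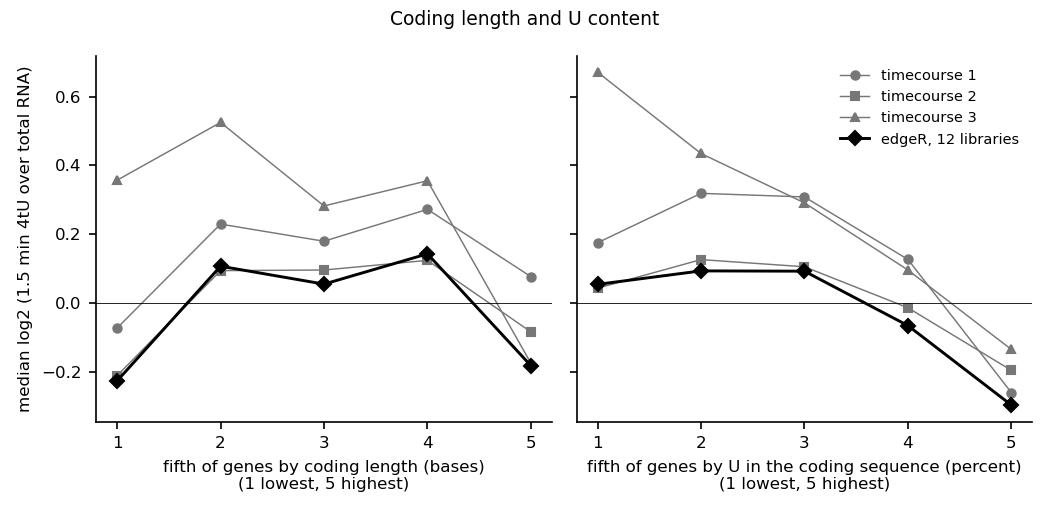
Median log2 of 1.5 min 4tU over total RNA (vertical) in quintiles of the 5049 genes by coding length (left) and by U in the coding sequence (right), for each timecourse (grey) and for edgeR over 12 libraries (black). Among the U quintiles, the one with the most U has the lowest median in all 3 timecourses.

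Labelling for 2.5 and 5 min was set against the same total RNA libraries, so these values share their controls with those above and are given side by side without a test. NDT80 stood at 2.15 at 1.5 min, 1.60 at 2.5 min and 0.60 at 5 min. FPT1 stood at 2.55, 1.94 and 0.95, and SWF1 at 2.76, 2.11 and 1.41. For these genes the value was smaller at each longer time. HTL1, in contrast, stood at 2.32, 2.29 and 2.62, and RED1 at 3.81, 3.91 and 3.44. Among lower genes, TMA19 stood at −3.65, −3.95 and −3.86 and HOM6 at −3.09, −3.14 and −3.19, while SDH4 stood at −2.56, −2.13 and −1.61 and DDR2 at −2.61, −1.51 and −1.03. The median of the respiratory chain list was −1.12, −0.79 and −0.45 at the 3 times, and that of amino acid synthesis −1.29, −1.35 and −1.44.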

How the data were processed

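Whole-number read counts per feature, deposited by the authors in a table of the whole series, were analysed; RPKM values in the same file (14 columns of per-sample values) were not used. Per the submitters' processing notes the sources name genome build R64 and STAR 2.4.2a. No label or header names the counting program or its strand setting. Per the labels, cells were grown in 600 ml, RNA was extracted with hot phenol, 2 mg was biotinylated for 15 min and captured on streptavidin, and libraries were made by random priming with 16 to 20 PCR cycles and 6 random bases in the barcode. Whether these bases were used to remove PCR duplicates is not given, so precision covers counting only up to that limit. Of the 12549 rows 100 full repeats were removed. Of 6688 protein-coding features 6005 were found by locus tag in the R64 annotation, the source of symbols, products and coordinates.

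Library sizes and TMM factors came from protein-coding features (factors of 1.16 to 1.41 at 1.5 min and 0.412 to 0.523 in total RNA), and features were kept with edgeR's filter at a minimum count of 10. edgeR 4.0.16 (R 4.3.3) fitted 4 groups of 3 libraries (1.5, 2.5 and 5 min and total RNA), without a block, and p-values of its quasi-likelihood test were corrected by the Benjamini-Hochberg method across every feature tested. The SE given with a log2 fold change was derived from that test. It is the absolute log2 fold change divided by the square root of the F value. The 5049 genes that passed the filter, of 5107, were read from that fit; 58 were not tested. DESeq2 1.42.0, limma 3.58.1 voom with sample weights, other scalings, filters and sets of libraries were alternatives. The code was tested on simulated data. Python 3.11.15 with pandas 2.3.3, numpy 2.4.6, matplotlib 3.10.9 and Biopython 1.88 made the tables and figures. Log2 differences within a timecourse used a pseudocount of 0.5 CPM.

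The labels number the samples by timecourse. The deviations of labelled and total RNA libraries from their group means correlated at 0.282, 0.237 and 0.285 for equal numbers over 6414 features and at −0.359 to 0.108 otherwise, so the numbers were taken to pair the samples. The reported fit left this pairing out and treated its 12 libraries as independent. The fit with the timecourse as a block used it and called 397 genes higher and 749 lower. Nothing in the labels says that timecourses were separate cultures, so p-values measure the spread between these samples, which may be technical. Genes were named by rule: the 12 highest and 12 lowest fold changes among called nuclear genes with the same sign in all timecourses and a mean of at least 20 CPM, and in each list the called gene with the smallest p in each direction and those with the most reads. The genes called in both fits and a few others are said to be chosen after their values were seen. The genes and lists were chosen with earlier results of these data known. The label-free libraries entered no test; the labels of 1 of them conflict on what it holds.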

Additional observations from a re-analysis of the deposited data

How the results depend on the processing

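The calls stood at 262 higher and 576 lower. They became 2536 higher and 78 lower with the protein-coding library size as the only scaling, which raised the genes' median log2 fold change to 1.38. TMM over all features gave 168 higher (732 lower), the DESeq2 Wald test 583 higher (808 lower), and limma voom with sample quality weights, added after seeing the data, 920 and 996 (total RNA replicate 3 had a weight of 0.0536, the others 0.537 to 2.71). The fit of only the 6 libraries gave 7 and 22. The replicate block gave 397 higher (749 lower) over 12 libraries and 22 and 87 over 6; among genes given with values it ended the call of STE18, brought STE2, LEU2, HIS3 and PDH1 past the threshold and changed no other call. Leaving out a timecourse or a library gave 0 to 783 higher and 0 to 921 lower; the calls were 0 without timecourse 2, where DESeq2 without replicate 2, added later, called 411 higher (495 lower). The counts stayed within 1.5 times with DESeq2's size factors, without a filter, with protein-coding features only and without genes near a stable RNA gene (246 higher and 556 lower). Of 114 called genes named, 81 were called in each of the 6 fits that left out 1 library.

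The sign turned with library size only in ILV5 (0.51), FUI1 (1.08), HAP1 (0.57), HCM1 (0.51), NSR1 (0.067) and RPB7 (0.15). CLN3 turned without timecourse 3 (−0.20), without 1.5 min replicate 2 (−0.067), without total RNA replicate 3 (−0.31) and with limma voom (−0.30), while its values without 1 library ranged from −0.31 to 0.71. The cause was not tested. Depth limits total RNA replicate 1, with 1629621 protein-coding reads.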

Other observations

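Genes named in the strain's marker alleles did not move together. TRP1 was higher at 1.5 min, with 169, 171 and 136 CPM at 1.5 min, against 75.9, 47.6 and 28.6 CPM in total RNA (log2 fold change 1.67 ± 0.35 SE, adjusted p = 0.00831, edgeR). CAN1, the arginine permease gene, was higher as well, at 1.33 ± 0.37 (SE, adjusted p = 0.0285), a call lost without 1.5 min replicate 1 or 2. HIS3 and ADE2 stood at 1.09 and 1.39 and were not called (adjusted p = 0.156 and 0.238), though HIS3 was in the blocked fit (adjusted p = 0.0382). LEU2, in contrast, had 5684, 9813 and 7788 CPM at 1.5 min, against 28372, 37454 and 10283 CPM in total RNA. Its log2 fold change of −1.71 was not called (adjusted p = 0.0535 by edgeR, or 0.0138 with the block). The cells grew without leucine although the strain is listed with a leu2 allele. Which copy of LEU2 these reads come from was not tested.

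PDH1, a mitochondrial 2-methylcitrate dehydratase of propionate breakdown, had 495, 10362 and 10342 CPM at 1.5 min, against 49.1, 632 and 371 CPM in total RNA. Timecourse 1 was far below the others both at 1.5 min and in total RNA. The log2 fold change of 4.33 ± 1.49 (SE, adjusted p = 0.0639) was not called by edgeR, whereas it was in the blocked fit (adjusted p = 0.000285). The mRNA export gene YRA1, whose intron takes part in its own regulation, was higher with 442, 454 and 479 CPM at 1.5 min, against 190.4, 203 and 259 CPM in total RNA (log2 fold change 1.07 ± 0.25 SE, adjusted p = 0.0135). SUR1, of sphingolipid synthesis, was higher at 1.45 ± 0.33 (SE, adjusted p = 0.0124). These genes were named after their values were seen.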
